A study of Mus musculus with 20 samples.

Results

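Open chromatin regions that were called in the dentate gyrus of neonatal and adult mice and were not called in mature adult mice are described here. They are the peaks on chromosomes 1 to 19 of the P5 single-cell ATAC-seq (scATAC-seq) library that overlapped a peak of the 12-week (12w) library by at least 1 bp and overlapped no peak of the 24-week (24w) library. There were 20295 such regions, referred to as member regions, among 140591 P5 peaks on these chromosomes (14.4%) and 143199 P5 peaks in all. The study followed neural stem cells (NSCs) and their progeny in the dentate gyrus (DG) of the hippocampus as mice aged. DGs of Nestin-EGFP mice (C57BL/6 background) were dissected at P5 (neonate), 12w (adult) and 24w (mature adult), dissociated with papain, and sorted for EGFP-positive viable cells. The sources used here name no other allele and no treatment for these animals. For each age 1 scATAC-seq library and 1 single-cell RNA-seq (scRNA-seq) library were made on the 10X Genomics platform, and the number of animals in each is not given in the sources used here. With 1 library per age, no difference between ages could be tested against the spread between animals, and the intervals below cover counting error only.

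In scATAC-seq a transposase cuts accessible DNA, so that a peak is a stretch where cuts pile up above the surrounding DNA. Promoters tend to be open in many cell types, whereas enhancers, which lie in introns and between genes, are often open in 1 lineage. In the DG, NSCs resemble astrocytes, give rise to intermediate progenitors that express Eomes and Neurog2, and these produce granule neurons under bHLH factors such as Neurod1 and Neurod2. The Nestin-EGFP transgene marks NSCs, and the protein is carried into their young progeny. EGFP-positive cells also include cells of the vascular wall, such as pericytes and smooth muscle cells, together called mural cells.

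The sequences of the 6 member regions with the largest preference for neuron-like nuclei (defined below) at both ages are shown first. Each line names the gene whose start was nearest, and gives the central 300 bases of the P5 peak, or the whole peak of 280 bases in Gm4131, on the plus strand of GRCm38 (mm10). Capitals mark CAGATG and CAGCTG, which are E-boxes of the kind that bHLH factors bind, and TTGGCA, part of the site of the nuclear factor I (NFI) family, on either strand.
nearest start Kctd3, 44.5 kb, chr1:189052219-189052518: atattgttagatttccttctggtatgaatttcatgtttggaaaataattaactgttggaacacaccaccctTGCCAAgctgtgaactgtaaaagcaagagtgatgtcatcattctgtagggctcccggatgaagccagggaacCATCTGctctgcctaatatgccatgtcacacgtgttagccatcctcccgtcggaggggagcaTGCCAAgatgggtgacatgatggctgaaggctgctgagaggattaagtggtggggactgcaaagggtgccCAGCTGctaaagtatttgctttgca
nearest start Tecrl, 529 kb, chr5:82825367-82825666: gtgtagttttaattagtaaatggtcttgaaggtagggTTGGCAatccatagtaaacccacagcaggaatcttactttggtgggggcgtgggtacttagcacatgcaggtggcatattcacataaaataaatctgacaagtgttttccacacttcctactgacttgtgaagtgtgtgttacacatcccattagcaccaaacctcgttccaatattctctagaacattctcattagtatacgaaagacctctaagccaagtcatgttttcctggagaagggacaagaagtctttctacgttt
nearest start Ulbp1, 114 kb, chr10:7358821-7359120: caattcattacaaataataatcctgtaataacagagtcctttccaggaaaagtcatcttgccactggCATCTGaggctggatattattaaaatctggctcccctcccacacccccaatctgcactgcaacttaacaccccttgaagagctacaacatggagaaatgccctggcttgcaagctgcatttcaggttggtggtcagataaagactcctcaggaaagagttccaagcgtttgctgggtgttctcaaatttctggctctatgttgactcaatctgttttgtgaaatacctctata
nearest start Pth2r, 238 kb, chr1:65548876-65549175: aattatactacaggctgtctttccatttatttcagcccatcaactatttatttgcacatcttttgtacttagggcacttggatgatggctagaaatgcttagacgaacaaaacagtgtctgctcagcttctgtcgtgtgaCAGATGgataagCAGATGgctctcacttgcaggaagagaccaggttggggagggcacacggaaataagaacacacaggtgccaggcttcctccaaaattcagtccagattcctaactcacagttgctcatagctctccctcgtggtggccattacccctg
intron of Gm4131, chr14:62476548-62476827: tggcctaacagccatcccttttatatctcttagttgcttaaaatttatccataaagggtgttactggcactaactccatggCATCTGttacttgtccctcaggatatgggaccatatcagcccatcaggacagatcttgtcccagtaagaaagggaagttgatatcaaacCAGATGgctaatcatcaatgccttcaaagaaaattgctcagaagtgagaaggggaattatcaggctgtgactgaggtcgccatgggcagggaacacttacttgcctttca
nearest start Ppp1r3g, 20.7 kb, chr13:35938021-35938320: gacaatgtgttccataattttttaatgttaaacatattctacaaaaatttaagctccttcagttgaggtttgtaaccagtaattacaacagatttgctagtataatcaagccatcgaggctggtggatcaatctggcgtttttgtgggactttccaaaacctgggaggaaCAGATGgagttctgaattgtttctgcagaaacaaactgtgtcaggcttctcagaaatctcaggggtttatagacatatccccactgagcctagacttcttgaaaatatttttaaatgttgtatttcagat
The first sequence held 1 CAGATG, 1 CAGCTG and 2 TTGGCA, those at Pth2r and Gm4131 held 2 CAGATG each, those at Ulbp1 and Ppp1r3g 1 CAGATG each, and that at Tecrl 1 TTGGCA. Of the 8 members with the highest counts at both ages, described further below, the one in Synpo was not searched in this way. In the central 300 bases, the one 13.2 kb from Smim20 held 1 CAGATG and 1 CAGCTG, and the other 6 held none of the strings. These 6 include the one at Srxn1, which preferred neuron-like nuclei 8.52-fold at P5 and 10.4-fold at 12w. Their P5 peaks were 1231 to 3038 bp long, so most of each was not searched. How often the strings occurred in all member regions is given further below.

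Peak calls alone chose the member regions, and the counts from which the peaks were called are therefore descriptions and not tests. Of the 140591 P5 peaks, 118670 overlapped a 12w peak and could have been members, and 17.1% of these were. Another 98375 had a peak at all 3 ages (3-age regions), 21597 had a peak only at P5 (P5-only regions), and 324 had a peak at P5 and 24w but not at 12w. Members made up 14.8% to 18.5% of the peaks shared by P5 and 12w on every autosome. The deposited 24w table holds counts in 24w peaks only, so a member region has no 24w value, and the absence of a 24w peak is not a count of 0.

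Member regions were short. Their median length at P5 was 402 bp (interquartile range 296 to 550 bp), against 875 bp in 3-age regions and 335 bp in P5-only regions. Only 6.11% of members exceeded 1000 bp, against 43.6% of 3-age regions. The matching 12w peaks had a median of 374 bp (258 to 494 bp), against 1140 bp for those of 3-age regions, so by the medians 3-age regions were wider at 12w than at P5 and members were not. Most members were far from any 24w peak, with a median gap of 4391 bp, and 2437 of them (12.0%) had one within 1000 bp. At the edge of the rule, 61 members had a 24w peak within 50 bp, and 2017 peaks fell outside the rule with 24w overlaps of 1 to 50 bp. The former had a median length of 215 bp and median counts of 118 at P5 and 422 at 12w, and the latter 337 bp, 183 and 365. There were 920 members (4.53%) that overlapped a 12w peak touching a 24w peak elsewhere along its length.

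The 3 scATAC-seq libraries held 8788, 12638 and 6041 nuclei at P5, 12w and 24w with more than 3000 and fewer than 100000 counts, and a median of 25475, 20246 and 24553 counts per nucleus. Counts are cut ends, and 89.2% to 91.8% of the values were even, since a fragment usually leaves both ends in the same peak. Any pair of libraries shared 72 to 155 nucleus barcodes, at most 1.76% of the smaller library. Nuclei were clustered within each library on autosomal peaks that overlapped a peak of both other libraries. Counts in these peaks are the counts in 3-age regions used for scaling below. At P5 this left out all members. At 12w it did not leave out the 12w peaks of the 920 members that touched a 24w peak elsewhere. Clusters were called neuron-like, astroglia-like, oligodendroglia-like or mural-like from the counts over marker genes. At 12w, 3 of the 4 neuron-like clusters had Neurod1, Neurod2, Eomes or Insm1 among their 10 leading genes. The other, cluster 8, had no marker among them, though 18 of 19 markers of neurons and intermediate progenitors were raised in it. At P5 the naming was weaker: 9 to 15 of 19 markers of neurons and intermediate progenitors were raised in the 3 neuron-like clusters, but only Neurod4, in 1 cluster, was among the 10 leading genes, and 23.6% of nuclei stayed unnamed.

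The share of neuron-like nuclei was lower in each later library. At P5, 29.7% of nuclei were neuron-like (28.7% to 30.7%, exact binomial interval at 95%). The 12w library had 24.9% (24.1% to 25.6%), and the 24w library 9.39% (8.66% to 10.1%). Mural-like nuclei made up 4.62%, 59.5% and 74.1%. Oligodendroglia-like nuclei went from 27.2% at P5 to 0.957% at 12w. The scRNA-seq libraries showed a like order, with 20%, 18.8% and 5.58% neuron-like cells and 4.85%, 29.1% and 77.5% mural-like cells, although 32.1% of cells at 12w stayed unnamed. The 24w library that decided which regions became members thus had the fewest neuron-like nuclei, 567 against 2610 and 3143. It also had the fewest counts in nuclei, 170859685 against 234209477 at P5 and 294810987 at 12w. Its peaks were the fewest as well, 134612 against 143199 and 161584. With 1 library per age, age, cell makeup and library depth cannot be told apart, and neither can fewer neuron-like nuclei and less open chromatin per nucleus.

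**Figure D1:**
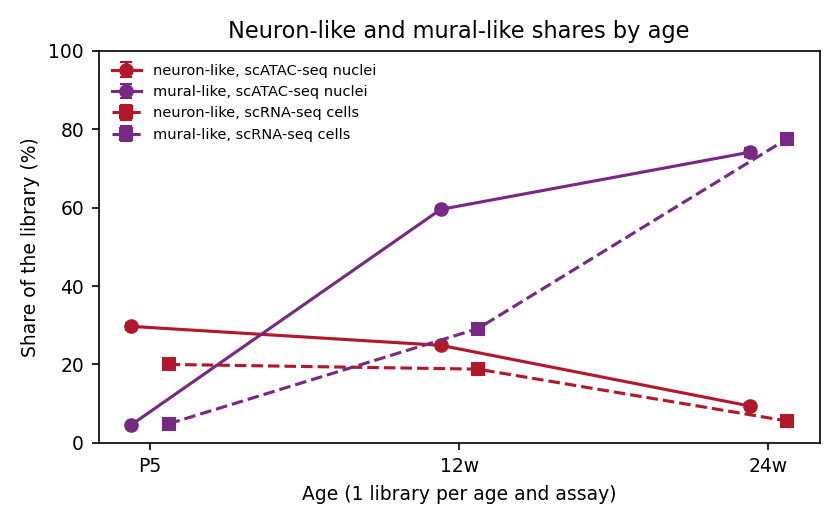
Share of neuron-like and mural-like nuclei (scATAC-seq, circles) and cells (scRNA-seq, squares) in percent of each library, by age. Bars, mostly hidden by the symbols, are exact binomial 95% intervals for counting error. The neuron-like share was lowest at 24w in both assays, at 9.39% and 5.58%, and the mural-like share highest, at 74.1% and 77.5%.

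Few nuclei had a count in the median member region. It had 0.0274 counts per nucleus in its P5 peak and 0.0153 in its 12w peak, against 0.104 and 0.0960 in 3-age regions. In a median member, 1.60% of nuclei at P5 and 0.886% at 12w had a count, which came to 241 counts (interquartile range 158 to 382) and 193 counts (129 to 283) over all nuclei. Most members thus lay at the low end of the peaks, although single members had a count in up to 21.2% of nuclei at P5. The highest value at 12w was 63.7%. Values at 12w are those of the whole 12w peaks that overlapped a member, which can extend past it, so this maximum need not describe the member itself. Together they held 2.75% of the counts in P5 peaks and 2.12% of those in 12w peaks, or 732 and 495 counts per nucleus. There were 14623 members (72.1%) with 100 or more counts at both ages and 7 with 1000 or more. Another 323 were under 20 bp long at P5, 453 had fewer than 10 counts at P5 and 505 at 12w, and 86 had none at P5.

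Members were also ranked by the smaller of their P5 and 12w counts per nucleus, so that a region high at only 1 age does not lead. The highest values were 0.658 at P5 and, over whole 12w peaks, 3.36 at 12w. The first of the 8 highest in this sense lay in an intron of Synpo, which encodes an actin-associated protein of dendritic spines and kidney podocytes. It had 0.356 counts per nucleus (exact Poisson 95% interval 0.338 to 0.374) at P5 and 0.334 (0.320 to 0.349) at 12w, and its nearest 24w peak was only 22 bp away. Its counts were lower in neuron-like than in other nuclei, 0.0655 against 0.478 at P5 and 0.178 against 0.386 at 12w. The region between genes at chr2:152096973-152098822, 7.62 kb from the start of Srxn1, showed the opposite pattern. It had 0.376 counts per neuron-like nucleus and 0.0406 per other nucleus at P5, and 0.613 and 0.0351 at 12w. The peak at chr5:53253414-53254418, 13.2 kb from the start of Smim20, was of the same kind, with 0.323 against 0.0432 at P5 and 0.484 against 0.0417 at 12w. Of these 8 regions, 5 had a 12w peak that touched a 24w peak elsewhere, so a 24w peak lay close by. The other 3 were in an exon of Faim2, which encodes an inhibitor of Fas-driven cell death in neurons, at the start of Mmp9, a matrix metalloproteinase, and in an exon of Grip1, which binds AMPA receptors. At Faim2 counts per nucleus were 0.197 (0.185 to 0.211) at P5 and 0.0997 (0.0921 to 0.108) at 12w. In neuron-like nuclei alone the same region had 0.287 and 0.311 counts per nucleus.

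Member regions preferred neuron-like nuclei more often than the shared peaks did. For each region, the rate in neuron-like nuclei was set against that in all other nuclei of the library, both scaled to counts in 3-age regions with 1 count added. At P5 the members did not place the nuclei in clusters. At 12w the 920 members whose 12w peak touched a 24w peak took part through that peak. With these members left out and the clusters unchanged, the 12w share given below was 79.2%. At P5, 9018 members (44.4%) had at least a 2-fold higher rate in neuron-like nuclei, against 24.4% of all peaks shared by P5 and 12w. The median fold was 1.63 in members and 0.946 in 3-age regions. At 12w, 15745 members (77.6%) passed 2-fold against 45.2% of the shared peaks, with a median fold of 4.43 against 1.29. The 45.2% is not a share of peaks of like height. In the 3 lowest 10% bins of 12w counts, 7075, 7327 and 7183 of 11867 shared peaks each passed at 12w. In the highest bin 450 of 11867 did. Those 3 lowest bins held 9657, 5930 and 2754 members, and the highest held 66. At both ages 8629 members (42.5%) passed, against 21.6% of the shared peaks. A further 7116 members (35.1%) passed only at 12w, 389 (1.92%) only at P5, and 4161 (20.5%) at neither age, the last against 58.6% of 3-age regions.

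**Figure D2:**
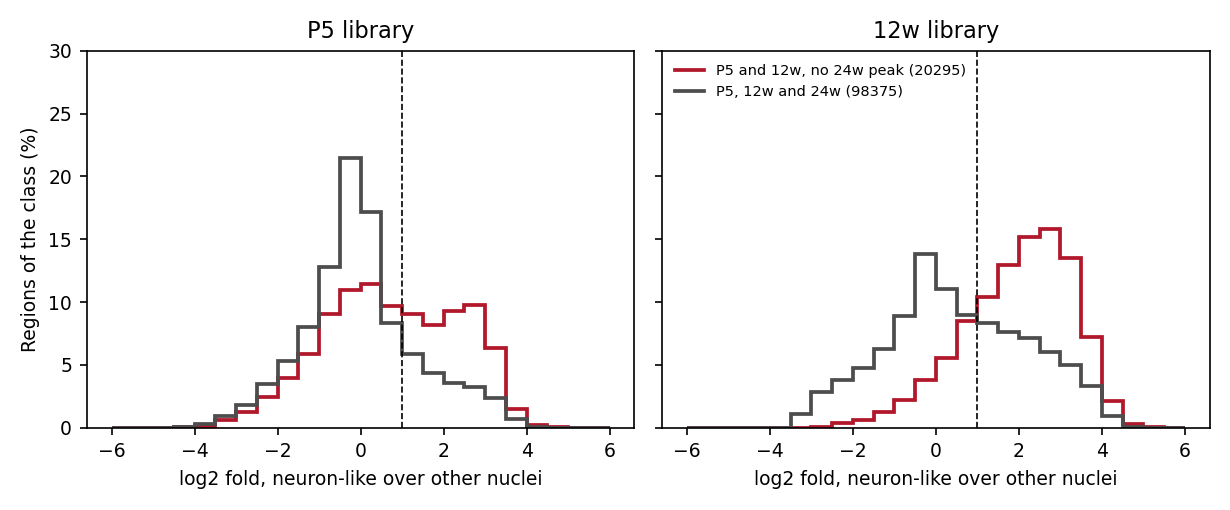
Distribution of the log2 fold of the rate in neuron-like nuclei over that in other nuclei, in the P5 library (left) and the 12w library (right). The vertical axis is the percent of regions of the class, and the dashed line marks 2-fold. Member regions (red) lie to the right of 3-age regions (grey), with 44.4% past the line at P5 and 77.6% at 12w.

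Preference for mural-like nuclei was rare among members. At 12w, 212 members (1.04%) had a 2-fold higher rate in mural-like nuclei, against 14.1% of the shared peaks, and 91.1% of members had at most 0.5 times the rate of other nuclei there, against 57.4%. At P5, with 406 mural-like nuclei, 998 members (4.92%) passed, against 14.4%, and 642 of the 998 had 3 or fewer counts in these nuclei. In astroglia-like nuclei, the class that would hold NSCs, 17.2% of members passed 2-fold at P5, against 15.2%, and 18.3% at 12w, against 17.1%. In oligodendroglia-like nuclei at P5, 10.4% of members passed, against 8.38%. By the median, members were lower than 3-age regions in these classes. Their median folds in astroglia-like nuclei were 0.741 against 0.933 at P5 and 0.636 against 0.882 at 12w. In oligodendroglia-like nuclei at P5 they were 0.424 against 0.803. Of members, 37.1%, 42.4% and 54.8%, in the same order, had at most 0.5 times the rate of other nuclei. The values for the shared peaks were 22.0%, 31.8% and 40.4%. Members also passed 2-fold more often than the shared peaks in other classes, most of them of few nuclei. At 12w, 7906 members (39.0%) passed 2-fold in the 164 interneuron-like nuclei, against 21.2% of the shared peaks, 7235 (35.6%) in the 67 endothelial-like nuclei, against 17.6%, and 5625 (27.7%) in the 121 oligodendroglia-like nuclei, against 17.1%. In ependymal-like nuclei 5947 members (29.3%) passed at P5, with 55 nuclei, against 20.5%, and 3742 (18.4%) at 12w, with 525 nuclei, against 15.7%. Of these calls 24.1%, 91.5%, 44.7%, 59.9% and 20.6%, in the order given, rested on 3 or fewer counts in the class, against 0.673% of the calls in neuron-like nuclei at 12w. The median folds of members in these 5 sets were 1.52, 1.52, 0.935, 1.12 and 0.585, against 1.01, 0.725, 0.846, 0.991 and 0.791 in 3-age regions. By the median, members were thus lower than 3-age regions in ependymal-like nuclei at 12w. The median member had only 4, 0, 1, 1 and 4 counts in these sets, so the added count weighs on its folds. A median fold above 1 there does not show that members were open in the class. In the unnamed nuclei 654 members (3.22%) passed at P5, against 1.5%, and 5650 (27.8%) at 12w, against 11%. P5-only regions differed from members, since 44.5% of them passed in oligodendroglia-like nuclei and 13.2% in neuron-like nuclei.

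Members without neuron preference were open in astroglia-like and oligodendroglia-like nuclei more often than members as a whole. Groups set by the neuron-like rate over all other nuclei differ in other classes in part by that definition. Of the 4161 members under 2-fold in neuron-like nuclei at both ages, 38.1% passed 2-fold in astroglia-like nuclei at P5 and 47.1% at 12w, and 884 (21.2%) in oligodendroglia-like nuclei at P5. Among the 8629 neuron-preferring members, 1.53% and 2.02% passed in astroglia-like nuclei, and among the 7116 that passed in neuron-like nuclei only at 12w, 24.4% and 21.3% did. The 7116 were also longer, with a median of 459 bp, than the 8629, with 372 bp. Mural-like preference at 12w was found in 3.46% of the 4161 and in none of the 8629 or of the 7116.

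The 6 members with the largest neuron preference, whose sequences stand above, were nearly silent in other nuclei. The region at chr1:189052136-189052602, 44.5 kb from the start of Kctd3, had 391 counts in neuron-like and 42 in other nuclei at P5, and 319 and 14 at 12w. These are 0.150 and 0.00680 counts per nucleus at P5 and 0.101 and 0.00147 at 12w, or scaled folds of 19.9 and 38.4. The region at chr1:65548826-65549226, 238 kb from the start of Pth2r, had 272 and 34 counts at P5 and 316 and 16 at 12w, with folds of 17.0 and 33.6. The region at chr10:7358780-7359162, 114 kb from Ulbp1, had 188 and 23 counts at P5 and 226 and 15 at 12w, with folds of 17.2 and 25.6. The remaining 3, at 529 kb from Tecrl, 20.7 kb from Ppp1r3g and in an intron of Gm4131, had folds of 16.5 to 18.9 at P5 and 17.0 to 26.4 at 12w. All but the Gm4131 region lay between genes, and their nearest 24w peaks were 2565 to 72635 bp away.

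Summed over all members, neuron-like nuclei had the highest value of the named classes at both ages. Per 1000 counts in 3-age regions, members had 35.4 counts in neuron-like, 28.3 in oligodendroglia-like, 26.7 in astroglia-like and 11.7 in mural-like nuclei at P5. At 12w they had 40.3 in neuron-like, 35.3 in interneuron-like, 22.6 in oligodendroglia-like, 20.2 in astroglia-like and 10.5 in mural-like nuclei. The median neuron-like nucleus had a count in 501 members at P5 and 588 at 12w, and the median mural-like nucleus in 104 and 70. Neuron-like nuclei were 24.9% of the 12w nuclei and held 35.7% of the counts in 3-age regions and 60.4% of those in members. Mural-like nuclei were 59.5% and held 45.3% and 20.1%. The median neuron-like nucleus at 12w had 30691 counts and the median mural-like nucleus 17108.5, so numbers of members per nucleus are not at like depth. Single clusters overlapped between classes. At 12w their values ran from 29.7 in cluster 7, led by Eomes, a factor of intermediate progenitors, and Insm1, a zinc finger factor of neuronal progenitors, to 46.7 in cluster 8. At P5 they were 25.4 in cluster 6, which had Neurod4 among its leading genes, 37.5 in cluster 1 and 42.7 in cluster 0. Cluster 6 thus lay below 3 oligodendroglia-like clusters (28.9 to 31.9) and 1 astroglia-like cluster (28.5) of that library, as cluster 7 lay below the 35.3 of the interneuron-like nuclei at 12w. The highest P5 value, 47.1, belonged to cluster 15, 89 unnamed nuclei with a median of 7597 counts led by repeat-rich genes such as Sfi1.

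**Figure D3:**
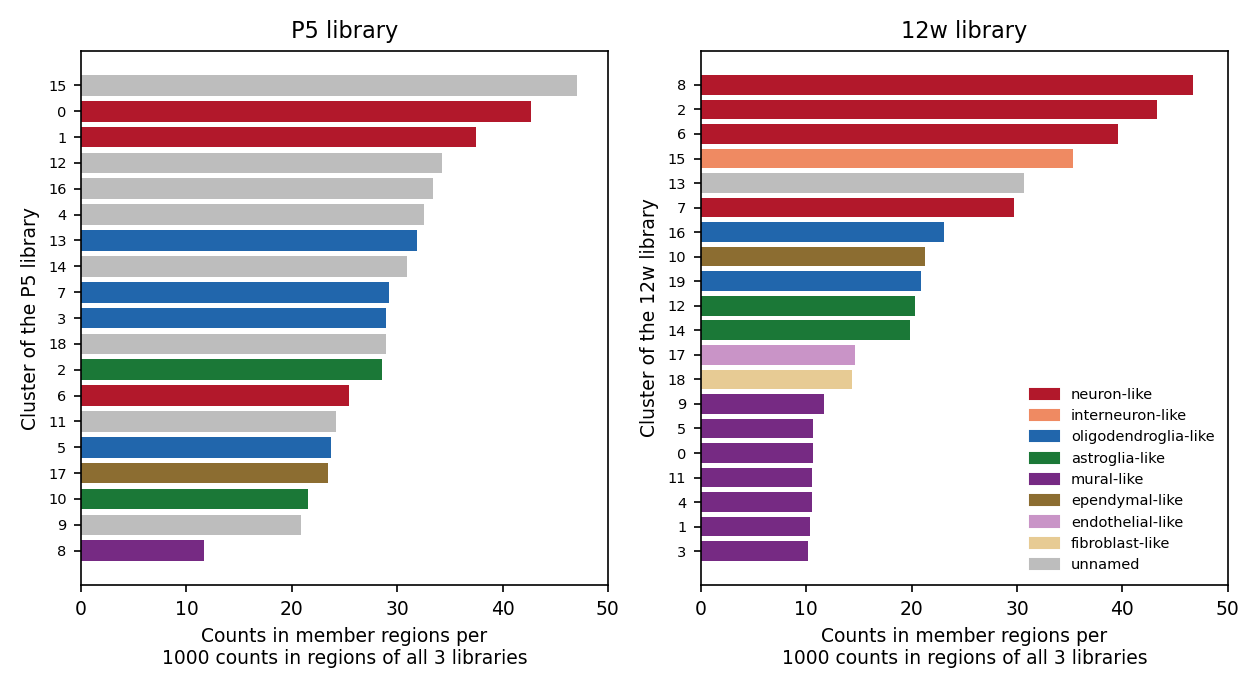
Counts in member regions per 1000 counts in 3-age regions (horizontal axis) for each cluster of nuclei at P5 (left) and 12w (right), coloured by the name of the cluster. Neuron-like clusters (red) reach 42.7 at P5 and 46.7 at 12w, and the mural-like clusters (purple) of the 12w library lie between 10.2 and 11.7.

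The 12w to P5 ratio of members depended on how the widths of the peaks were treated. Counts of each age were taken over that age's own peak, so the ratio compares intervals of unlike length. As counted and scaled to counts in 3-age regions, the median log2 ratio of 12w to P5 over all nuclei was -0.64 (interquartile range -1.49 to 0.16) in members and -0.16 in 3-age regions. There were 7707 members (38.0%) at least 2-fold lower at 12w, against 17.5% of all shared peaks, and 2757 (13.6%) at least 2-fold higher, against 19.3%. Within neuron-like nuclei 4196 members (20.7%) were at least 2-fold lower, against 5.29%, and 3566 (17.6%) at least 2-fold higher, against 19.2%. Per base of each age's peak, scaled to the counts per base in 3-age regions, the values were closer to those of 3-age regions. Over all nuclei the median log2 ratio per base was 0.12 (-0.14 to 0.34) in members and 0.26 in 3-age regions. Per base 603 members (2.97%) were at least 2-fold lower, against 1.13% of the shared peaks, and 861 (4.24%) at least 2-fold higher, against 12.6%. Within neuron-like nuclei the median per base was 0.58 in members and 0.53 in 3-age regions, with 266 members (1.31%) lower, against 0.812%, and 5716 (28.2%) higher, against 23%. In astroglia-like nuclei the median was -0.81 in members and -0.06 in 3-age regions as counted, and 0.01 and 0.29 per base. In mural-like nuclei members were lower at 12w in both forms, with medians of -2.05 as counted and -1.28 per base against -0.61 and -0.34 in 3-age regions. There 14899 members (73.4%) were at least 2-fold lower as counted, against 46.9% of the shared peaks, and 11911 (58.7%) per base, against 37.5%, but the median member had 4 counts in the 406 mural-like nuclei of P5, so that the added count weighs on these ratios. Over all nuclei, members with neuron preference at neither age lay below those with it at both ages in either form, with medians of -1.33 and -0.23 as counted and -0.04 and 0.21 per base.

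Which of the shared peaks lacked a 24w peak went with both their height and their class preference. In the lowest 10% of 12w counts, 81.4% had no 24w peak. The share was 49.97% in the second bin, 23.2% in the third and 8.60% in the fourth, and it was at most 1.51% in the upper 5 bins. Within a bin, neuron-preferring peaks lacked a 24w peak more often: 93.8% against 63.1% of the others in the lowest bin, 70.0% against 17.7% in the second, and 35.1% against 5.04% in the third. Over all bins, 29.4% of the 53631 peaks with neuron preference at 12w had no 24w peak, against 7.00% of the 65039 others. For the 16691 peaks that preferred mural-like nuclei at 12w, the share was 1.27%. It was above the 17.1% of all shared peaks for 4 other classes at 12w, with 31.5% for interneuron-like, 27.7% for oligodendroglia-like, 20.1% for ependymal-like and 18.3% for astroglia-like preference. As counted, a high share was thus not particular to neuron-like preference. These shares were not taken at like height. Of the member calls in interneuron-like and oligodendroglia-like nuclei, 24.1% and 44.7% rested on 3 or fewer counts.

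**Figure D4:**
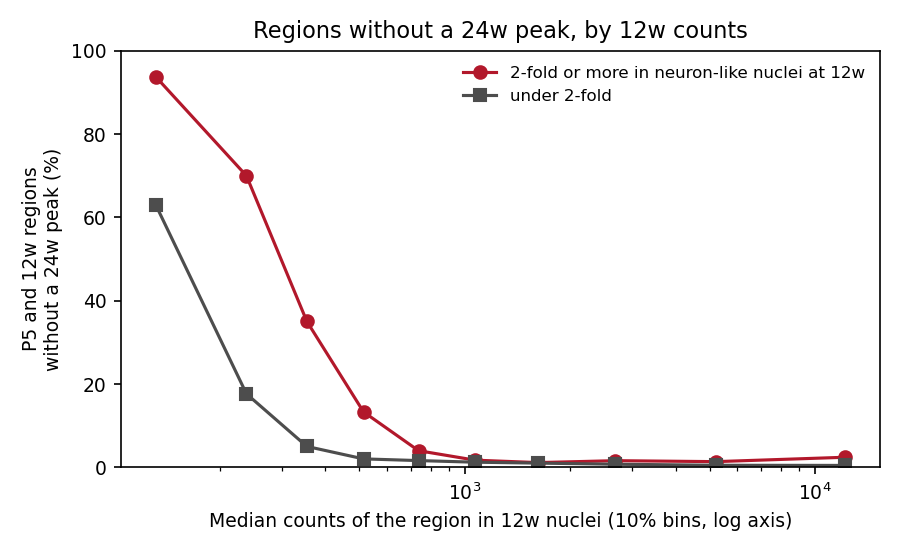
Percent of peaks shared by P5 and 12w that had no 24w peak (vertical axis), by their counts in 12w nuclei in 10% bins placed at the bin median (horizontal, log axis). Peaks at least 2-fold higher in neuron-like nuclei (red) lay above the others (grey) in every bin, with 70.0% against 17.7% in the second bin.

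The share of neuron-like nuclei was set beside these values by weighting. For each region the 12w rate of every class, per count in 3-age regions, was multiplied by the counts that 24w nuclei of that class had in 3-age regions. This gives the count that the region would have had at 24w with the openness per class of 12w. As counted at 12w, the median was 193 counts in members and 1213 in 3-age regions. Under the 12w mix of classes and the 24w depth, members would have had a median of 111 counts, and under the 24w mix 64.6. The median ratio of the second mix to the first was 56.3%. In 3-age regions the medians were 697 and 517, with a ratio of 84.0%, and the median counted at 24w was 464. The 24w peaks of 258 to 494 bp, the middle range of the members' 12w peaks, had a median of 126 counts, and the lowest 10% had 85 or fewer. Of the members, with 12w peaks of any length, 14370 (70.8%) had a weighted count below 85. In 3-age regions the share was 3.18%, but these have longer peaks, so the 2 shares are not of like peaks. Under the 12w mix the interquartile range of members was 74.1 to 163 counts, so part of them lay below 85 under that mix too. At weighted counts of 25 to 50, 93.2% of the shared peaks had no 24w peak, and at 100 to 200 it was 15.1%. Within these ranges of weighted counts neuron-preferring peaks lacked a 24w peak more often than the others, with 70.7% against 50.2% at 50 to 100 and 18.9% against 8.39% at 100 to 200, although each range spans 2-fold and the weighted counts of both groups may differ inside it. The weighting assumes that openness per class stayed as at 12w and is a description. The parts of cell makeup and of library depth in the missing 24w peaks were not tested.

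Member regions lay away from promoters. Only 5.83% were within 1 kb of a transcription start, against 20.8% of 3-age regions, while 46.4% lay in introns (38.6%), 40.5% between genes (32.8%) and 7.21% in exons (7.81%). Their median distance to the nearest start was 21.6 kb against 11.9 kb, and 29.0% lay more than 50 kb away, against 18.5%. Of the shared peaks at a start, 5.47% had no 24w peak, against 20.3% of those between genes. P5-only regions also had 5.83% at starts, so a low share at starts was not particular to members. Members with neuron preference at both ages were at starts in 4.20% and between genes in 46.4%, and members with it at neither age in 8.46% and 33.0%.

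The central 300 bases of members often held E-box and NFI letters. CAGATG or its reverse complement was found in 35.4% of members, 26.1% of 3-age regions and 28.0% of P5-only regions, against 27.8% of all P5 peaks. TTGGCA or its reverse complement was found in 32.6%, 24.6% and 23.4%, against 25.6%, and the palindrome CAGCTG in 26.6%, 23.2% and 25.8%, against 24.1%. The core of the CTCF motif, searched on both strands, was found in 1.40% of members and 3.91% of 3-age regions (3.19% of all P5 peaks), and the GC box GGGCGG in 6.06% and 14.2% (11.6%). CAGATG went with neuron preference: it was found in 48.6% of members with neuron preference at both ages and 23.4% of those with it at neither age. In 3-age regions the same groups had 42.1% and 21.3%. TTGGCA was found in 35.7% of members with the preference at both ages and 35.3% of such 3-age regions, and in 28.2% and 20.1% of those with it at neither age. The homeobox letters TAATTA were found in 11.01% of members and 9.48% of 3-age regions (9.39% of all P5 peaks), with 12.7% against 17.4% where the preference was seen at both ages and 6.37% against 5.87% where it was seen at neither. Members had a median GC content of 48.7%, close to the 50% of 3-age regions, and among regions of 40% to 50% GC, CAGATG was found in 35.3% and 28.3%. Of the other motifs searched on both strands, AP-1 (TGANTCA) was found in 9.78% and 8.99% (9.33%), ACAAAG of SOX and TCF factors in 26.6% and 24.7% (26.0%) and the nuclear receptor letters AGGTCA in 12.4% and 15.1% (14.3%), while the RFX motif was found in 1.53% and 1.31% (1.36%), NRF1 in 0.488% and 0.785% (0.709%) and MEF2 in 0.468% and 0.770% (0.672%). The window covers more of a member, with a median of 402 bp at P5, than of a 3-age region, with 875 bp. Matches can share bases, since TTGGCA ends and CAGATG begins with CA, and a match describes the sequence and does not show binding.

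The genes with the most member regions were long. Within a protein-coding gene or 2 kb upstream of one lay 10981 members, in 4847 genes, of which 521 had 5 or more and 147 had 10 or more. The counts were highest for Gm20388 (111 members) and Fgfr2, an FGF receptor (48), but their gene models span 4434.88 kb and 2960.9 kb and overlap 73 and 30 other protein-coding genes. Members were 18.0% and 17.0% of their peaks shared by P5 and 12w, near the 17.1% over all such peaks. The next 13 genes held 320 members, of which 265 (82.8%) had neuron preference at 12w, against 77.6% of all members and 81.6% of the members in all genes of 300 kb or more.

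Cdh13, which encodes a cadherin anchored to the membrane by lipid, had 28 members among 65 shared peaks (43.1%). Tenm2, a teneurin of synaptic contacts, had 28 of 76 (36.8%), and 27 of the 28 preferred neuron-like nuclei at 12w. Ctnna2, the neuronal alpha-catenin that links cadherins to actin, had 27 of 62 (43.5%), and Sdk1, an immunoglobulin-family adhesion molecule of synaptic layers, 24 of 50 (48.0%). Shank2, a scaffold of the postsynaptic density, had 24 of 53 (45.3%) in the shortest of the 15 genes, 423 kb. Dab1, the adaptor through which neurons respond to Reelin, had 28 of 95 (29.5%).

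Npas3, a bHLH-PAS transcription factor, had 27 of 80 (33.8%), with 19 neuron-preferring at 12w and 3 at both ages. Rbfox1 and Celf2, which bind RNA and direct splicing, had 23 of 69 (33.3%) and 21 of 53 (39.6%). Auts2, a nuclear regulator linked to neurodevelopment, had 24 of 108 (22.2%), and Camta1, a calmodulin-binding transcription activator, 20 of 94 (21.3%). Pde4d, a cAMP phosphodiesterase, had 25 of 82 (30.5%), and Ntm, a membrane-anchored adhesion protein, 21 of 91 (23.1%).

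**Figure D5:**
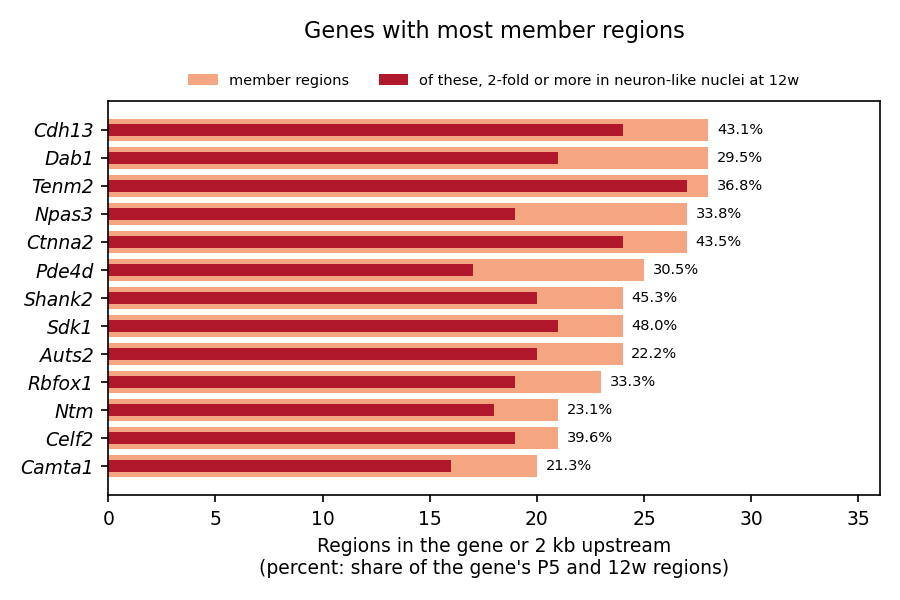
Number of member regions in each gene or within 2 kb upstream (horizontal axis, light bars) and the number of these at least 2-fold higher in neuron-like nuclei at 12w (dark bars), with the members' share of the gene's peaks in percent. The 13 genes are those with most members after Gm20388 and Fgfr2, whose models overlap many other genes; Sdk1 has the highest share, 48.0%.

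Gene length went with the share of members. Members were 8.59% of the shared peaks in genes under 30 kb, 12.8% at 30 to 100 kb, 16.0% at 100 to 300 kb and 22.0% in longer genes. All but Fgfr2 of the 15 genes were above the 17.1% of all shared peaks, and all 15 were over 300 kb, so 22.0% is the closer comparison. Gm20388 (18.0%), Fgfr2 (17.0%) and Camta1 (21.3%) were below it, and Auts2 (22.2%) and Ntm (23.1%) were near it. The 15 were chosen for their number of members, so a high share goes in part with that choice. By density, among genes with 4 or more members, Rhbdf2 (an inactive rhomboid protein), Rasal1 (a Ras GTPase-activating protein), Sspo (SCO-spondin, a secreted glycoprotein), Unc5a (a netrin receptor) and Sfrp1 (a secreted Wnt-binding protein) led with 10.5 to 13.9 members per 100 kb. These rest on 4 to 6 members each. At Sspo 6 of 10 shared peaks were members, and all 6 preferred neuron-like nuclei at 12w.

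Lists of genes chosen by function differed in their share of members. In 43 genes of synapse and excitability found in the annotation, 267 of 974 shared peaks (27.4%) were members, and 42 of the genes had at least 1. Nrxn3, which encodes a presynaptic adhesion protein, had 20 of 70, and Cacna2d3, a calcium channel subunit, 18 of 62. In 42 genes of axon guidance and adhesion, 282 of 1173 (24.0%) were members, with 19 of 67 at Opcml and 18 of 86 at Lsamp. The median length of these lists was 491 and 429 kb, so the share of long genes, 22.0%, again lies close. In 25 genes of neurogenic factors, 60 of 392 (15.3%) were members, mostly at Nfib (19 of 66), Zbtb20 (12 of 92) and Nfia (10 of 62), and 14 of the 25 genes had none. Their median length was 17.0 kb, and members were 8.59% of the shared peaks in genes of that length class (under 30 kb). Astroglia and stem cell genes had 40 of 241 (16.6%), with 9 of 39 at Ntrk2, the BDNF receptor, and 7 of 32 at Gli3, a Hedgehog effector, and interneuron genes 10 of 44 (22.7%), at median lengths of 11.5 and 6.52 kb in the same class. Oligodendrocyte lineage genes had 33 of 163 (20.2%) and vascular genes 6 of 89 (6.74%), at 40.4 and 39.2 kb, where all genes of 30 to 100 kb had 12.8%. A list's genes vary in length, so that most of its peaks can lie in genes longer than the median.

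RNA of the 15 genes with most members was a readout that the choice of regions did not use. Over all cells, 10 of the 15 had lower CPM (UMIs scaled to a common total) at 24w than at 12w, 7 of them with exact Poisson intervals that did not overlap, and 1, Cdh13, was higher in the same sense, at 2.72 and 7.14 CPM. Of the 15, 11 reached 10 CPM at P5 or 12w, and 8 of these 11 were lower at 24w, 7 with intervals apart. Among all 10014 genes that reached 10 CPM at P5 or 12w, 53.3% were lower at 24w and 23.6% were lower with intervals apart. The 24w level did not enter this filter, so genes high only at 24w are left out and the shares lean towards lower values at 24w. In neuron-like cells 9 of the 15 were lower, 1 with intervals apart, and none was higher with intervals apart. There 10 of the 15 reached 10 CPM, of which 6 were lower and 1 with intervals apart. Among the 9213 genes at 10 CPM or more at P5 or 12w, 51.6% were lower and 2.71% with intervals apart. The libraries held 2565, 991 and 156 neuron-like cells, so only well-expressed genes could be compared at 24w. Lower RNA was not particular to the step from 12w to 24w. From P5 to 12w, with the regions called at both ages, 12 of the 15 were lower over all cells and 8 of the 15 in neuron-like cells. Among the genes at 10 CPM or more, 41.4% and 37.9% were lower at 12w than at P5.

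Celf2 and Auts2 showed how the values over all cells and within neuron-like cells differed. Celf2 was at 305, 182 and 78.2 CPM at P5, 12w and 24w over all cells, and at 453, 438 and 446 (401 to 493) CPM in neuron-like cells. Auts2 was at 90.2, 89.2 and 51.2 CPM over all cells and at 197, 216 and 243 in neuron-like cells. In neuron-like cells the 12w and 24w intervals of both genes overlapped. Rbfox1 was at 14.9 and 5.88 CPM at 12w and 24w over all cells and at 41.8 (36.2 to 48.0) and 33.8 (22.5 to 48.9) in neuron-like cells. Dab1 was the exception. In neuron-like cells the 12w library had 38.2 CPM of it (32.8 to 44.2), and the 24w library 15.7 (8.36 to 26.8), from 13 UMIs. In astroglia-like cells Dab1 was at 116 (104 to 130) and 103 (81.8 to 129) CPM at 12w and 24w. Pde4d was high in mural-like cells, with 240 and 182 CPM at 12w and 24w against 12.9 and 20.5 in neuron-like cells. Ntm was highest in astroglia-like cells, with 617 CPM at 12w and 1082 at 24w against 49.2 and 38.6 in neuron-like cells. Thus not every gene with many members was expressed mainly in neuron-like cells, although 17 of 25 members at Pde4d and 18 of 21 at Ntm preferred neuron-like nuclei at 12w. Gm20388 is listed at 0 UMIs at every age, and since its model overlaps 73 other protein-coding genes, reads there may not have been assignable to it, so its RNA level is not known from these counts.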

How the data were processed

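scATAC-seq and scRNA-seq of EGFP-positive DG cells were analysed, with 1 library per age and assay. For scATAC-seq the authors deposited a peak list and a peak-by-barcode table of counts of cut ends per library on mm10, and for scRNA-seq tables of UMI counts. Per the study's methods and the submitters' processing notes, Cell Ranger 2.2.0 aligned the scRNA-seq reads and Seurat 4.1.0 integrated the ages, and Cell Ranger 1.2.0 made the scATAC-seq tables. Peaks were called per library, so lengths and calls vary with depth and cell makeup. Bulk libraries of cultured cells in the series were not used here. The member regions and gene lists were chosen with earlier results of these data known.

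Overlap was counted from 1 bp. Nuclei with more than 3000 and fewer than 100000 counts were clustered per library on its autosomal peaks that overlapped a peak of both other libraries. Latent semantic indexing (components 2 to 30), 20 neighbours and Leiden resolution 1.0 were used (scikit-learn 1.9.0, igraph 0.11.9, leidenalg 0.10.2). Clusters were named from markers over gene bodies and 2 kb upstream. A name needed 3 markers raised 1.5-fold and a score (mean log2 fold of the markers over the mean of up to 8 groups of like clusters) of 0.4. That score minimum, the joining of neuron with intermediate progenitor markers and of oligodendrocyte precursor with oligodendrocyte markers, and leaving out clusters led by repeat genes were chosen after seeing the clusters. Doublets were not called in scATAC-seq. RNA cells had at least 1000 UMIs, 500 genes and at most 10% mitochondrial UMIs, and scrublet in scanpy 1.11.5 removed 859, 79 and 3 doublets at P5, 12w and 24w (the last 0.107%).

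Folds had 1 count added and were called at 2-fold. Poisson intervals (95%) were taken on fragments, at 2 counts per fragment. Counting intervals do not cover differences between mice, and PCR copies of a molecule may remain. Genes and positions came from the GRCm38 annotation and sequences from its genome. Regions were named as the 8 with the highest smaller value of the P5 and 12w counts per nucleus and the 6 with the largest smaller neuron-like fold at both ages with 100 or more counts in each library. Genes were named as the 15 with most members, the 5 with most per 100 kb among those with 4 or more, and the leading examples of each list. The fold and interval code was tested on simulated data. Alternatives covered the overlap rule, the nucleus filter, the resolution, the scaling, the fold, the start and gene windows and the sequence window.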

Additional observations from a re-analysis of the deposited data

How the results depend on the processing

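Of 61 values recomputed under alternatives, 26 stayed within the 95% counting interval of the value or, for counts of regions, within 1.5 times the count. The other 35 moved further. Most of these values are counts or shares, which have no sign, so a change of sign was not tested in this set. No paired analysis was possible because each age has 1 library, and leaving out a replicate was not possible for the same reason. Members stayed above all shared peaks in neuron preference under 16 of 16 settings of the classes, scaling and fold, none of which compared peaks of like height.

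At P5 the neuron-preferring share of members (44.4%) was 43.5% when an overlap of at least 50% of the P5 peak was required at 12w and less at 24w, 46.6% with 100 or more counts at both ages, 46.6% without scaling, 52.3% called at 1.5-fold and 46.2% counting nuclei. At 12w (77.6%) the same settings gave 78.8%, 81.0%, 89.0%, 84.9% and 89.3%, while members 500 bp or more from a 24w peak gave 79.1% and resolution 2.0 gave 79.5%. Chosen after seeing the data were the following 2 alternatives and the ratio per base: against astroglia-like nuclei only, the shares were 43.7% and 58.9% (24.7% and 32.6% of shared peaks), and without members whose 12w peak touches a 24w peak the 12w share was 79.2%. The share of members at least 2-fold lower at 12w (38.0%) was 27.6% under the 50% overlap, 38.7% at 500 bp or more, 32.5% with 100 or more counts, 39.7% without touching peaks, 39.995% scaled to all counts in peaks, 49.98% over all barcodes, 20.7% in neuron-like nuclei and 2.97% per base of each age's peak, where the median log2 ratio also changed sign (-0.64 to 0.12). The gap between neuron-preferring and other peaks in lacking a 24w peak (22.4 points) was 31.4, 19.4, 21.4, 21.9 and 20.4 points under the 50% overlap, 100 or more counts, no scaling, nuclei with a count and astroglia-like nuclei only. Members at starts rose to 7.57% under the 50% overlap and 9.58% within 2 kb, and CAGATG to 46.8% in 500 bases. The neuron-like share at P5 was 33.2% and 27.4% at resolutions 0.5 and 2.0 and 33.8% over 5000 counts, and at 12w 26.9% at resolution 2.0. The number of members ranged from 14623 to 27477.

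Depth limits single regions: a median member had 193 counts at 12w, and the 24w library had 567 neuron-like nuclei.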
